A study of Homo sapiens with 9 samples.

Results

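The 9 genes CAV1, CAV2, CAVIN1, CAVIN3, EHD2, DNM2, LRP1, LRP8 and INSR encode parts of caveolae and of receptor-mediated transcytosis, and their messages were followed in hCMEC/D3 cells, an immortalised line of human brain microvascular endothelium used to model the blood-brain barrier in culture. They were taken by symbol from a table of 15570 genes, all 9 were listed, and all 9 were among the 10818 genes tested. Untreated control cells (n = 3) were compared with cells kept for 4 h without glucose, in medium gassed with 95% N2 and 5% CO2 (oxygen and glucose deprivation, OGD, n = 3) and with cells returned after such deprivation to normal medium at 21% O2 and 5% CO2 for 16 h (OGD/R, n = 3). No control was described for the passage of time or for the change of medium, so these cannot be told apart from deprivation and reoxygenation. Nothing in the labels says that replicates were separate cultures, and p-values therefore measure the spread between these libraries only, which may be technical.

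Caveolae are flask-shaped pits of the plasma membrane, built from caveolin oligomers in the inner leaflet and a peripheral coat of cavins, with an EHD2 ring at the neck. In most endothelium they carry plasma cargo across the cell, whereas in brain endothelium this route is kept low and larger molecules cross mainly through receptors such as the insulin receptor and members of the LDL receptor family, which are taken up largely by clathrin-coated pits. Dynamin cuts vesicles of both routes from the membrane.

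Expression is given in FPKM, fragments scaled to transcript length and to library size, which allows levels of different genes to be compared. How deeply each library was read is unknown, and counting error cannot be stated. Summed FPKM ran from 454237 to 537878 in control, from 585947 to 605818 under OGD and from 442696 to 449248 in OGD/R. Log2 fold changes are differences of log2(FPKM + 1), and the median over all genes tested was -0.31 when OGD was set against control, 0.39 for the step from OGD to OGD/R, and 0.07 between OGD/R and control. Relative values below are fold changes with that median subtracted. Fold changes also moved with transcript length, the slope of log2 values per doubling of length running from -0.0731 to 0.051 in control, from -0.199 to -0.149 under OGD and from 0.13 to 0.227 in OGD/R. The longest annotated transcript of the 9 genes ranged from 1174 bases for CAVIN3 to 14897 bases for LRP1.

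The endothelial label was only partly borne out by its markers. Of 14 endothelial markers, 13 were listed and 6 reached 1 FPKM in any library. MCAM (24.5, 21.6 and 59.9 FPKM on average in control, OGD and OGD/R) and ENG (13.8, 6.65 and 33.7) made up most of their sum. CD34 averaged 2.97, 0.176 and 3.08 FPKM in the same order. PECAM1 averaged 1.11 FPKM and CDH5 1.26 FPKM in control, while VWF and CLDN5 stayed at or under 0.0881 and 0.101 FPKM in every library. The highest values in any library were 0.0176 FPKM for KDR, 0.0455 for FLT1, 0.0804 for TEK, 0.191 for ERG and 0.420 for TIE1. The summed level of the endothelial markers was 39.8 to 53.1 FPKM in control, 28.6 to 31.2 under OGD and 94.0 to 112 in OGD/R. Fibroblast markers (3 of 5 reaching 1 FPKM) summed to 20.4 to 28.2, 9.17 to 10.7 and 51.9 to 69.2 FPKM, with DCN at no more than 0.186. Pericyte and smooth muscle markers (4 of 8 reaching 1 FPKM) summed to 12.7 to 18.7, 9.61 to 10.8 and 23.5 to 26.0 FPKM in the same order. Epithelial markers (2 of 5, mostly KRT18) gave 166 to 201, 130.2 to 139.5 and 238 to 257 FPKM. Neuronal (1 of 5), leukocyte (1 of 5) and astrocyte (0 of 5) markers reached at most 24.1, 27.3 and 0.587 FPKM. The part of these shifts in the results below was not tested, and fewer expressing cells cannot be told apart from less RNA per cell.

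The main caveolin passed no test on the deposited scale, while several of its partners did. CAV1, the integral membrane protein without which caveolae do not form, read 94.9, 123 and 94.4 FPKM in control, 99.4, 96.3 and 93.4 under OGD and 106, 112 and 114 in OGD/R. Control and OGD overlapped, as did control and OGD/R. In OGD against control the log2 fold change was -0.10 (SE 0.10, 95% interval -0.33 to 0.12, limma adjusted p = 0.417), and in OGD/R against control it was 0.10 (interval -0.13 to 0.32, adjusted p = 0.482). OGD/R lay above OGD in all libraries, but the difference of 0.20 on the log2 scale (interval -0.03 to 0.42, adjusted p = 0.107) did not pass the test. Its direction depended on scaling. After median-of-ratios scaling CAV1 was lower in OGD/R than in OGD (-0.29, adjusted p = 0.0431), whereas with libraries scaled to an equal summed FPKM it was higher (0.62, adjusted p = 0.00073) and also lower in OGD than in control (-0.38, adjusted p = 0.0218). OGD/R was called higher than OGD after quantile normalization (0.34, adjusted p = 0.0273), in a fit of those groups only (adjusted p = 0.0186) and without control replicate 2 (adjusted p = 0.0234). Leaving out that library, the highest control, also called CAV1 higher in OGD/R than in control (0.22, adjusted p = 0.0393). The gene lies on chromosome 7 (116525009 to 116561185, GRCh38, NCBI Gene 857) and overlaps no other annotated gene.

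CAV2, which forms hetero-oligomers with CAV1 and is encoded next to it (chromosome 7, 116499738 to 116508541, NCBI Gene 858), fell in OGD and rose again. It read 20.9, 25.9 and 21.4 FPKM in control, 16.8, 15.7 and 13.3 under OGD and 19.1, 21.4 and 20.6 in OGD/R. Every OGD library lay under every control and every OGD/R library, while control and OGD/R overlapped (-0.15, interval -0.40 to 0.10, adjusted p = 0.328). The fall was -0.54 (SE 0.12, adjusted p = 0.0019) and the later rise 0.40 (SE 0.12, adjusted p = 0.00814), the latter equal to that of the median gene (relative value 0.01). Neither call was kept after median-of-ratios scaling (-0.18, adjusted p = 0.195, and -0.07, adjusted p = 0.603) or quantile normalization (adjusted p = 0.0978 and 0.925), and with the length trend removed the rise was lost as well (0.08, adjusted p = 0.563). The fall was lost with the replicate block and the length trend removed (-0.30, adjusted p = 0.0585).

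**Figure D1:**
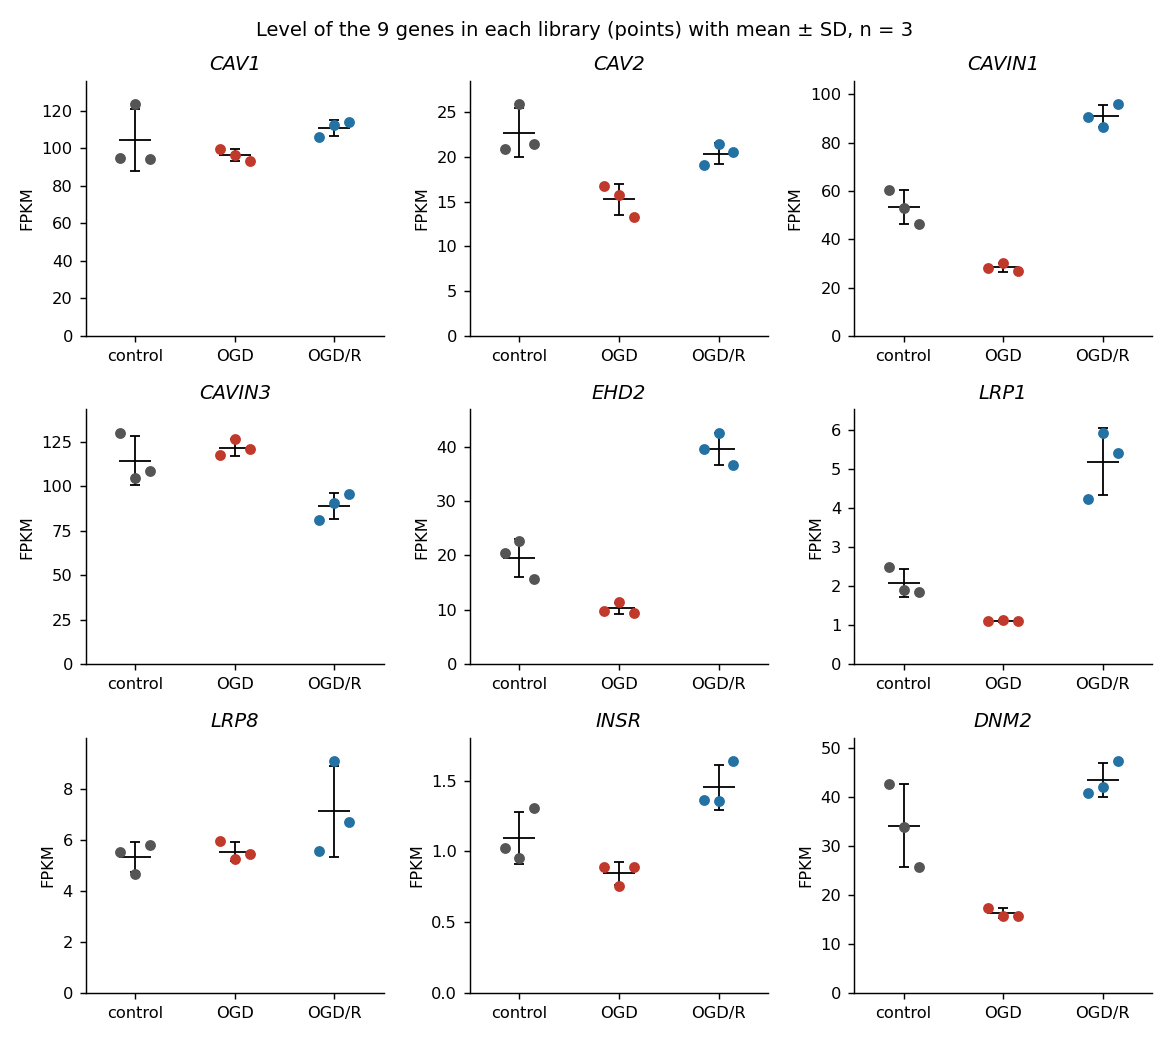
FPKM of the 9 genes (vertical axes, linear from 0, each with its own range) in control, OGD and OGD/R libraries. Points are single libraries, and bars are the mean ± SD of 3 libraries. CAVIN1, EHD2, LRP1 and DNM2 were lowest under OGD and highest on average in OGD/R, while CAVIN3 was lowest in OGD/R.

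The cavins split. CAVIN1, the coat protein required for caveola formation (formerly PTRF, chromosome 17, 42402449 to 42423256, NCBI Gene 284119), read 60.5, 52.9 and 46.5 FPKM in control. In OGD it read 28.2, 30.2 and 26.7 FPKM, and in OGD/R 90.6, 86.6 and 95.9 FPKM. No group overlapped another. It fell by 0.88 on the log2 scale in OGD (SE 0.10, adjusted p = 4.23e-05), rose by 1.65 from OGD to OGD/R (SE 0.10, adjusted p = 1.34e-07) and ended 0.77 above control (SE 0.10, adjusted p = 0.000157). All 3 calls held under each of the 21 alternative settings, and 96.9% of the genes tested had a lower fold change from OGD to OGD/R.

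CAVIN3, a cavin that binds protein kinase C delta (chromosome 11, 6318946 to 6320501, NCBI Gene 112464), went the other way. Control libraries stood at 130.2, 104 and 108 FPKM, OGD libraries at 117, 127 and 121, and OGD/R libraries at 81.3, 90.4 and 95.7. Control and OGD overlapped, and all OGD/R libraries were below all others. It fell by 0.45 from OGD to OGD/R (SE 0.10, adjusted p = 0.00149) and was 0.35 lower than control (SE 0.10, adjusted p = 0.014), whereas OGD against control gave 0.10 (interval -0.12 to 0.31, adjusted p = 0.423). Scaled to an equal summed FPKM, neither fall passed the test (-0.03, adjusted p = 0.824, and -0.21, adjusted p = 0.142). With the replicate block and the length trend removed, the fall from OGD to OGD/R was lost (-0.23, adjusted p = 0.0826). The fall against control was also lost with the length trend removed (-0.16, adjusted p = 0.177) and without OGD/R replicate 1 (-0.29, adjusted p = 0.056). After median-of-ratios scaling CAVIN3 was called higher in OGD than in control (0.48, adjusted p = 0.00173).

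EHD2, the ATPase that rings the neck of caveolae and holds them at the surface (chromosome 19, 47713422 to 47743134, NCBI Gene 30846), rose from OGD to OGD/R by more than the other 8 genes on the log2(FPKM + 1) scale, although the ratio of mean FPKM was higher for LRP1 (4.65) than for EHD2 (3.85). Its control values were 20.4, 22.6 and 15.6 FPKM, its OGD values 9.85, 11.5 and 9.50, and its OGD/R values 39.6, 42.5 and 36.5. The 3 groups did not overlap. The changes were -0.85 in OGD (SE 0.13, adjusted p = 0.000268), 1.85 from OGD to OGD/R (SE 0.13, adjusted p = 3.38e-07) and 1.0 against control (SE 0.13, adjusted p = 0.00015), and none of the 21 alternative settings ended a call.

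DNM2, the widely expressed dynamin GTPase that severs vesicle necks (chromosome 19, 10718079 to 10831903, NCBI Gene 1785), had the largest fall of the 9 in OGD on the deposited scale. It read 42.7, 34.0 and 25.7 FPKM in control, the widest relative spread in that group, then 17.4, 15.7 and 15.7 under OGD and 40.8, 42.1 and 47.4 in OGD/R. OGD was below both other groups, which overlapped each other. It fell by 1.0 (SE 0.15, adjusted p = 0.000206), with only 4.74% of the genes tested falling further, and rose by 1.36 in OGD/R (SE 0.15, adjusted p = 6.42e-06). OGD/R against control gave 0.37 (interval 0.04 to 0.69, adjusted p = 0.0648), a difference that passed without control replicate 1 (0.54, adjusted p = 0.00586), after quantile normalization (adjusted p = 0.0387) and scaled to an equal summed FPKM (adjusted p = 0.0308).

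On the deposited scale LRP1 was the receptor with the widest range. LRP1, a large endocytic receptor that takes up apolipoprotein E, amyloid beta and proteinase-inhibitor complexes (chromosome 12, 57128483 to 57213361, NCBI Gene 4035), read 2.49, 1.92 and 1.85 FPKM in control. OGD libraries stood at 1.10, 1.14 and 1.11 FPKM and OGD/R libraries at 4.23, 5.92 and 5.40 FPKM, with no overlap between groups. The fold changes were -0.54 in OGD (SE 0.14, adjusted p = 0.00665), 1.54 from OGD to OGD/R (SE 0.14, adjusted p = 1.94e-06) and 1.0 against control (SE 0.14, adjusted p = 0.000238). LRP1 has the longest transcript of the 9, and with the length trend removed the fall in OGD was gone (0.10, adjusted p = 0.47) while the rises shrank to 0.43 (adjusted p = 0.00577) and 0.53 (adjusted p = 0.00308). Quantile normalization also ended the call of the fall (-0.22, adjusted p = 0.0943).

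LRP8, the reelin and apolipoprotein E receptor also named ApoER2 (chromosome 1, 53242364 to 53328070, NCBI Gene 7804), passed no test on the deposited scale. Values were 5.51, 4.68 and 5.79 FPKM in control, 5.95, 5.23 and 5.44 under OGD and 5.56, 9.08 and 6.70 in OGD/R, and every pair of groups overlapped. OGD against control gave 0.05 (interval -0.29 to 0.39, adjusted p = 0.793), OGD/R against OGD 0.29 (interval -0.05 to 0.63, adjusted p = 0.115) and OGD/R against control 0.34 (interval 0.00 to 0.68, adjusted p = 0.0995). Without OGD/R replicate 1, the lowest of its group, LRP8 was called higher in OGD/R than in control (0.48, adjusted p = 0.0319) and than in OGD (0.43, adjusted p = 0.0283). LRP8 was called higher in OGD than in control by 0.38 after median-of-ratios scaling (adjusted p = 0.0278), by 0.44 after quantile normalization (adjusted p = 0.0234) and by 0.52 with the length trend removed (adjusted p = 0.00966). With the length trend removed it was lower in OGD/R than in OGD (-0.47, adjusted p = 0.01), and scaled to an equal summed FPKM it was higher (0.70, adjusted p = 0.00254).

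INSR, the insulin receptor tyrosine kinase (chromosome 19, 7112265 to 7294414, NCBI Gene 3643), was the least abundant of the 9. It read 1.02, 0.956 and 1.30 FPKM in control, 0.888, 0.753 and 0.893 under OGD and 1.36, 1.36 and 1.64 in OGD/R, with no overlap between any 2 groups. It reached 1 FPKM in 5 libraries and passed the expression filter only because of its OGD/R values. A gene that entered through its highest group had to differ there, so its difference of 0.41 from OGD to OGD/R (interval 0.14 to 0.68), a relative value of 0.02, is given as a description with no test. The other differences were -0.18 in OGD against control (interval -0.45 to 0.09, adjusted p = 0.227) and 0.23 in OGD/R against control (interval -0.04 to 0.50). With the length trend removed the value from OGD to OGD/R was -0.43. Scaled to an equal summed FPKM it was called lower in OGD than in control (-0.41, adjusted p = 0.0478).

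Of the other loci, that of CAV2 overlaps no annotated gene. The rest overlap genes such as LRP1-AS and a microRNA gene at LRP1, several microRNA genes inside DNM2, and unnamed loci whose type was not looked up. None of these is listed in the table, and whether reads were assigned by strand is not given in the sources used here.

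Counted together, 0 of the 9 genes were called higher in OGD than in control and 5 lower (CAV2, CAVIN1, EHD2, LRP1 and DNM2), against 11.3% and 46.7% of all genes tested. From OGD to OGD/R those 5 were called higher and 1 lower (CAVIN3), against 53.3% and 17.4% of all genes. INSR also passed the threshold upward but is left out of that count, since it entered the test through its OGD/R values. In OGD/R against control 3 were called higher (CAVIN1, EHD2 and LRP1) and 1 lower (CAVIN3), against 24.7% and 16.5%. Calls are adjusted p-values under 0.05. In OGD against control 6 genes had all OGD libraries below all controls and 0 the reverse, against 51.8% and 13.2% of all genes. From OGD to OGD/R 7 lay wholly higher and 1 wholly lower, against 57.8% and 20.4%. In OGD/R against control these were 4 (CAVIN1, EHD2, LRP1 and INSR) and 1, against 28.5% and 19.3%. INSR is among the higher in both, but it entered through its OGD/R values, so its separation there is no result. These counts lie near what the whole table gives, and the 9 genes as a set therefore do not stand apart by number of calls. The median fold change of the 9 was -0.54, 0.41 and 0.34 in the 3 comparisons, against -0.31, 0.39 and 0.07 over all genes. The comparisons share libraries and are not independent of each other.

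Over all genes the direction of calls depended on scaling. OGD against control gave 1218 genes higher and 5054 lower on the deposited scale, and 2930 and 2422 after median-of-ratios scaling, when 27.1% and 22.4% of genes were called. Of the 9 genes, CAVIN3 and LRP8 were then higher and CAVIN1, EHD2, LRP1 and DNM2 lower. From OGD to OGD/R the whole table gave 5770 higher and 1878 lower as deposited, and 3432 and 3783 (31.7% and 35% of genes) after that scaling. CAVIN1, EHD2, LRP1 and DNM2 then remained higher, and CAV1 and CAVIN3 were lower. For OGD/R against control the whole table gave 2673 and 1787 as deposited, and 2342 and 2550 (21.6% and 23.6%) after it, and the calls among the 9 were those of the deposited scale.

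**Figure D2:**
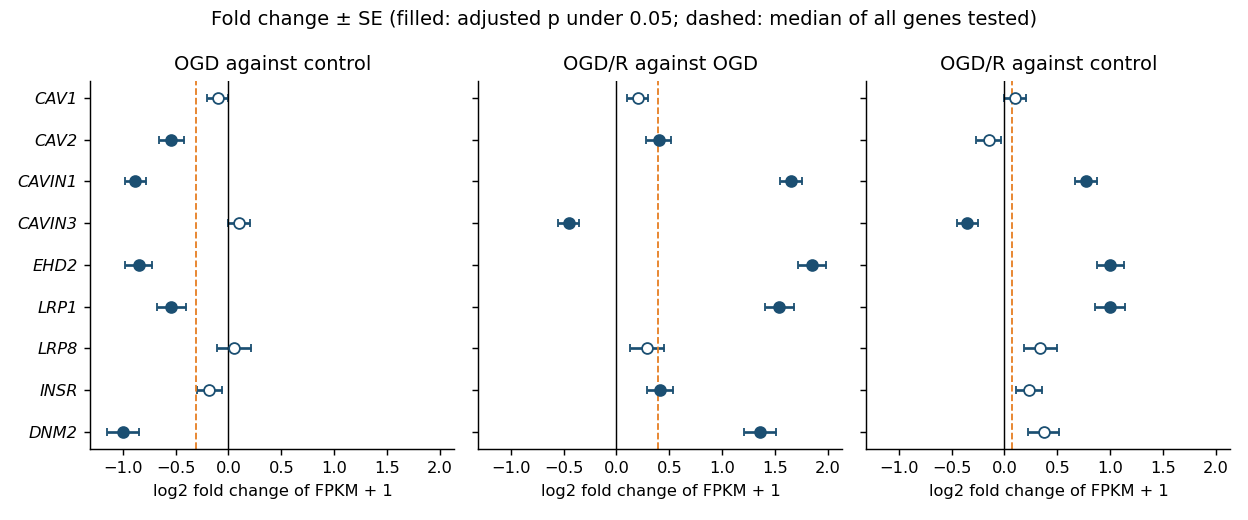
Log2 fold change of FPKM + 1 (horizontal axis) with its standard error for the 9 genes in the 3 comparisons. Filled points had an adjusted p under 0.05, and the dashed line is the median of the 10818 genes tested, at -0.31, 0.39 and 0.07. CAVIN1, EHD2 and LRP1 lay farthest to the right of that line in OGD/R against control, at 0.77, 1.0 and 1.0. DNM2, LRP8, INSR and CAV1 also lay to its right there, as open points at 0.37, 0.34, 0.23 and 0.10.

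**Figure D3:**
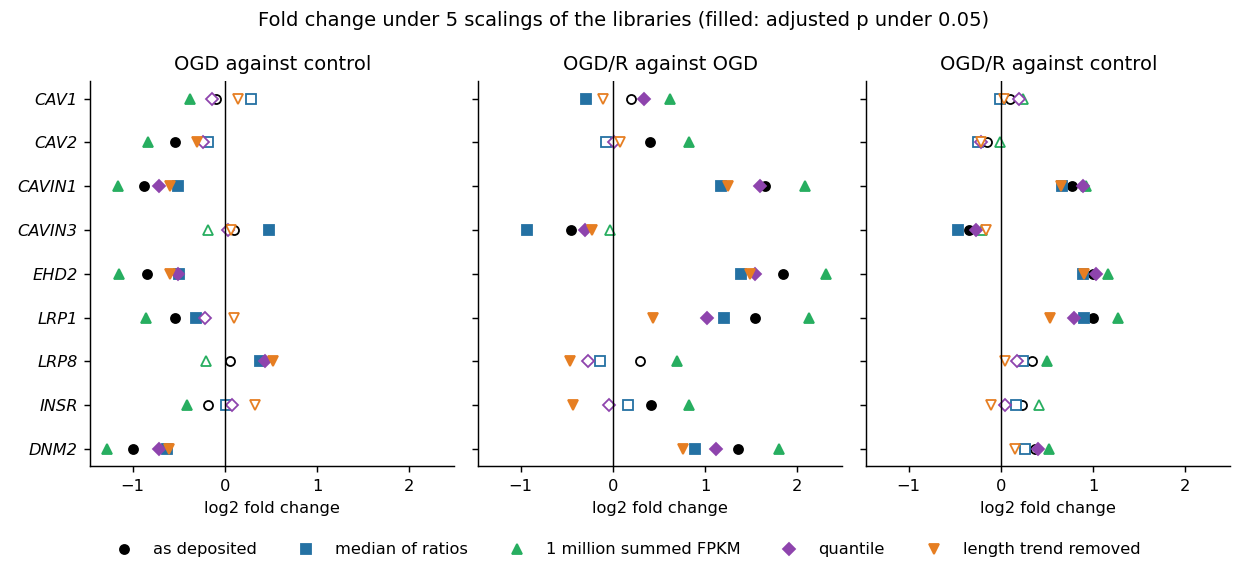
Log2 fold change (horizontal axis) of the 9 genes under 5 scalings of the libraries, 1 marker shape each, filled where the adjusted p was under 0.05. The signs for CAVIN1, EHD2 and DNM2 were the same under all 5 in every comparison, whereas CAV1, CAVIN3, LRP1, LRP8 and INSR changed sign between scalings in OGD against control.

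Ratios of 2 genes within a library are unaffected by multiplying all values of that library by 1 factor, but quantile normalization and length trend removal do change them. They show unequal change without saying which gene changed. CAVIN1 stood at 0.637, 0.428 and 0.493 of the CAV1 level in the control libraries. The ratio was 0.284, 0.314 and 0.286 under OGD and 0.856, 0.772 and 0.842 in OGD/R. The groups did not overlap, and the ratio was 2.80 times higher in OGD/R than in OGD.

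EHD2 relative to CAV1 started at 0.188 ± 0.0251 in control and was 0.107 ± 0.0108 under OGD and 0.358 ± 0.0322 in OGD/R (mean ± SD, n = 3), again without overlap. CAV2 relative to CAV1 was 0.219 ± 0.0087, 0.158 ± 0.0136 and 0.184 ± 0.00616, and the groups were separate. CAVIN3 relative to CAV1 averaged 1.12 in control and 1.26 in OGD, which overlapped, and 0.805 in OGD/R, below both.

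Of the 7 ratios examined, that of the 2 cavins differed most from OGD to OGD/R on the deposited scale. The longest transcript had 3828 bases for CAVIN1 and 1174 for CAVIN3, so the length trend enters this ratio too. The ranking was not repeated with that trend removed. CAVIN1 was 0.466 ± 0.0385 of CAVIN3 in control, 0.233 ± 0.0113 under OGD and 1.02 ± 0.0812 in OGD/R, a 4.39-fold difference between the last pair of groups. LRP1 relative to LRP8 was 0.394 ± 0.0675, 0.202 ± 0.0165 and 0.740 ± 0.0792 in the same order. That contrast depended on transcript length, since with the length trend removed LRP1 changed by 0.43 and LRP8 by -0.47 from OGD to OGD/R, and by 0.10 and 0.52 in OGD, on the log2 scale. Of 21 differences between groups in 7 such ratios, 19 showed no overlap, and the exception for DNM2 to CAV1 was OGD/R against control. With 3 libraries against 3, an exact two-sided permutation test cannot give a p below 0.1, which was the value for each of those 19. The share without overlap among ratios of other gene pairs was not computed, so this count is no result about these genes. Of single genes tested, 51.8% lay wholly lower and 13.2% wholly higher in OGD than in control. From OGD to OGD/R 57.8% lay wholly higher and 20.4% wholly lower, and against control 28.5% and 19.3%. The 7 pairs were chosen without a stated rule, and most share CAV1.

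**Figure D4:**
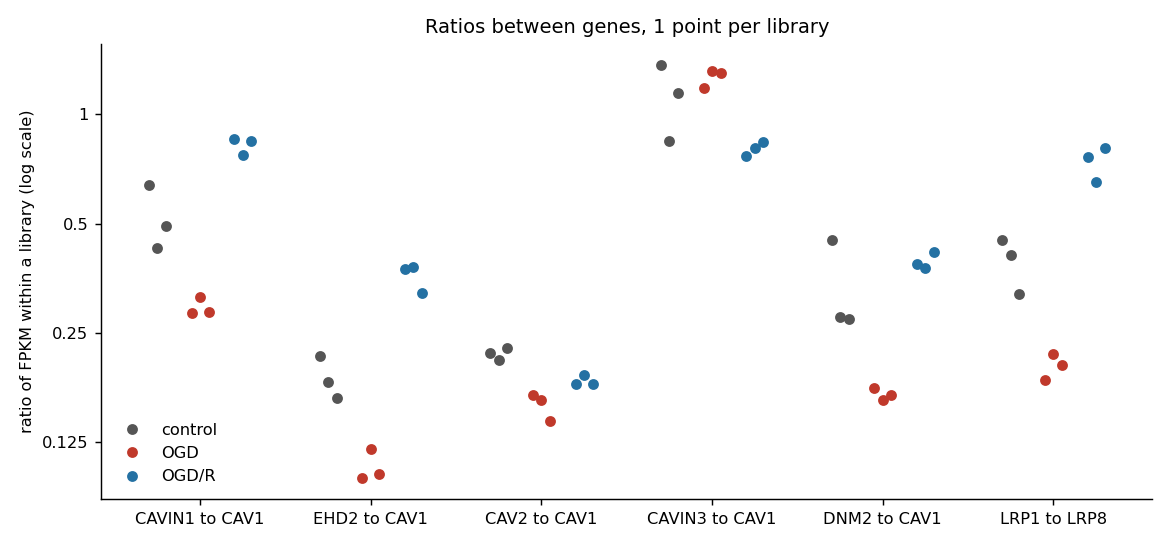
Ratio of FPKM of 2 genes within each library (vertical axis, log scale), 1 point per library. For CAVIN1 to CAV1, EHD2 to CAV1 and LRP1 to LRP8 the OGD libraries lie lowest and the OGD/R libraries highest, without overlap, and for CAVIN3 to CAV1 the OGD/R libraries lie lowest.

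The order of levels changed with these shifts. In control CAVIN3 (114 FPKM) and CAV1 (104) overlapped at the top, followed by CAVIN1 (53.3), then by DNM2 (34.1), CAV2 (22.7) and EHD2 (19.5), of which neighbours overlapped. LRP8 (5.33), LRP1 (2.09) and INSR (1.09) followed with no overlap. In OGD all neighbours were separate except DNM2 (16.3) and CAV2 (15.3). In OGD/R CAV1 (111) was first, CAVIN1 (91.0) and CAVIN3 (89.1) overlapped, as did DNM2 (43.5) and EHD2 (39.6), and LRP8 (7.11) with LRP1 (5.19).

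Likeness of pattern was measured as the root mean square difference of log2 values over the 9 libraries, each gene centred on its own mean. Within the set CAVIN1 was nearest to EHD2 (0.16), LRP1 (0.19) and DNM2 (0.20), and farthest from CAVIN3 (0.86). The genes outside the set nearest to CAVIN1 were SLC6A8, the creatine transporter, and CHAF1A, a chromatin assembly factor (0.082 each). Those nearest to EHD2 were RIPOR1 (0.095) and the nucleoporin gene NUP188 (0.10). LRP1 was nearest to the spliceosomal helicase gene SNRNP200 (0.057) and to GAPVD1, a regulator of RAB5 on endosomes (0.074), and DNM2 to UBA7 (0.098) and the cyclin gene CCNF (0.10). For CAV2 they were SLC25A46 (0.057) and ZMPSTE24 (0.066), for CAVIN3 ABT1 (0.062) and MRPS10 (0.066), and for LRP8 NRDE2 (0.096) and WDR77 (0.098). CAV1 and INSR varied too little over the libraries (SD 0.143 and 0.197) for this measure, which had been set to need an SD of 0.2. All such distances share the libraries and their scaling.

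Promoter windows are shown for EHD2, LRP1 and DNM2, which fell and rose together, and for CAV1, which did not, so that the letters can be compared. RefSeq entries (GRCh38.p14), from 250 bases before to 50 bases after an annotated start, were found for 7 of the 9 genes, all but CAVIN1 and CAVIN3. All 4 windows are on the plus strand and read 5′ to 3′, with GC boxes (GGGCGG on either strand) in capitals.
EHD2, chr19:47713172-47713471: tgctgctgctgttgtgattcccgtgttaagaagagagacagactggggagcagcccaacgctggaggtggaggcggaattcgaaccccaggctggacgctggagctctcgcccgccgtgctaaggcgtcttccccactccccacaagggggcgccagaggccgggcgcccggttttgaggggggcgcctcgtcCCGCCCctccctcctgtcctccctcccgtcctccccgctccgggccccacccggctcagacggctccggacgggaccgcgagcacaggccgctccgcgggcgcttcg
LRP1, chr12:57128233-57128532: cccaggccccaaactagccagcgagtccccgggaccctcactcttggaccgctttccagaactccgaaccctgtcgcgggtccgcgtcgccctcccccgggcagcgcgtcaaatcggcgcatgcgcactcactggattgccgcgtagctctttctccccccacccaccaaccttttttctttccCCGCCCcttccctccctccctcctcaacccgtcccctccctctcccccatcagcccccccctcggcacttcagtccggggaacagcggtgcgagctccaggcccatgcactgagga
DNM2, chr19:10717829-10718128: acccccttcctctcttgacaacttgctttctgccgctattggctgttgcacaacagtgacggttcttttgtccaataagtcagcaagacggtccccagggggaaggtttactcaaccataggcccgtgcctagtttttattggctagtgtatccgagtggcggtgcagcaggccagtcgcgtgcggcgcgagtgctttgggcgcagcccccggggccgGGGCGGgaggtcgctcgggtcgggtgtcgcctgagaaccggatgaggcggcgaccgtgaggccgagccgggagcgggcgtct
CAV1, chr7:116524759-116525058: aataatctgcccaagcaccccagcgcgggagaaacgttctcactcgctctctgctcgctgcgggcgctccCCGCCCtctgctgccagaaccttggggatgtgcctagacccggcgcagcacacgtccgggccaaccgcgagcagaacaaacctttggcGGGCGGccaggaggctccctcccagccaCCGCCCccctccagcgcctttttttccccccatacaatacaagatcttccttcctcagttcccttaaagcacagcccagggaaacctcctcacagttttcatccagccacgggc

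The windows of EHD2, LRP1 and DNM2 each held 1 GC box and the CAV1 window shown held 3, a motif present in 45% of 35116 promoter windows of the same length. Windows not shown held 6 and 4 GC boxes for CAV2, 5 for LRP8 and 4 for INSR, so a low number was not shared by the genes that fell and rose. GC content was 71% for EHD2, 67% for LRP1, 63% for DNM2 and 62.3% for CAV1, against a median of 58.7%. It was 82.7% and 71.0% in the windows of CAV2, and 78.3% for LRP8 and for INSR. CAV1 has 3 annotated windows, of which the one at 116526112 held 2 GC boxes, 2 hypoxia cores and 71% GC. The core letters of a hypoxia response element, ACGTG or GCGTG on either strand, occurred once each in the windows of DNM2 and CAV1 and were not in those of EHD2 and LRP1 (48.4% of windows hold them). DNM2 held 3 CCAAT boxes (CCAAT on either strand, 34.6% of windows) and the other windows shown held 0. The windows and motifs were picked after the expression values were seen, and matches describe letters only.

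Other genes of the pathway were taken from lists that leave out the 9. Their counts are to be read against all genes tested, of which 46.7% were lower and 11.3% higher in OGD, 53.3% higher and 17.4% lower from OGD to OGD/R, and 24.7% higher and 16.5% lower in OGD/R against control. After median-of-ratios scaling these shares were 22.4% and 27.1%, 31.7% and 35%, and 21.6% and 23.6%. With the length trend removed, of 10804 genes 2547 were lower and 2298 higher in OGD. From OGD to OGD/R 3330 were then higher and 3333 lower, and against control 2248 and 2500. Relative medians are list medians minus that of all genes, and genes that passed the filter only through their highest group are among those counted. Of 9 further genes for caveolar coat and neck proteins, 6 passed the filter, and CAV3 and CAVIN4, known from muscle, did not. In OGD 3 of the 6 were lower and 0 higher (median -0.44, relative median -0.13), and from OGD to OGD/R 5 were higher and 0 lower (median 0.91, relative median 0.52). Against control 3 were higher and 1 lower in OGD/R. Median-of-ratios scaling left 2 lower in OGD and 4 higher from OGD to OGD/R, with 0 the other way. CAVIN2, the cavin that shapes endothelial caveolae, read 7.33, 7.89 and 6.77 FPKM in control, 1.48, 1.67 and 1.58 under OGD and 4.53, 6.40 and 5.37 in OGD/R. Its fall (-1.69, SE 0.14, adjusted p = 3.29e-06) was larger than those of the 9 genes, and unlike CAVIN1 it stayed under control in every OGD/R library (-0.38, adjusted p = 0.0396). That last call was lost in 11 of 21 settings (adjusted p from 0.0561 to 0.238). EHD1, a relative of EHD2 that acts in endosome recycling, was higher in OGD/R than in control (from 9.07 to 16.7 FPKM, 0.82, adjusted p = 0.000355).

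Among caveolar regulators, cargo receptors and flotillins 6 of 9 were tested, of which 4 were lower in OGD and 5 higher from OGD to OGD/R, with 0 the other way in both. The relative medians were -0.30 and 0.64. After median-of-ratios scaling 3 were lower and 2 higher in OGD, and 4 higher and 1 lower from OGD to OGD/R. ACVRL1, counted as higher from OGD to OGD/R, passed the filter only through its OGD/R values, so that call is no result. FLOT2, a flotillin of non-caveolar membrane domains, fell from 29.3 to 11.0 FPKM in OGD (-1.32, adjusted p = 5.96e-06). SCARB1, a receptor for high-density lipoprotein, read 33.5, 38.4 and 36.9 FPKM in OGD/R against 26.1, 16.7 and 15.7 in control (0.89, SE 0.15, adjusted p = 0.000776). A pair of genes outside the naming rule were picked after their values were seen. PLVAP, which forms the diaphragms of caveolae in leaky vessels, did not exceed 0.0419 FPKM in any library. MFSD2A, a lipid transporter that restrains caveolar transcytosis in brain endothelium, was at 4.21 FPKM in control, 5.34 under OGD and 7.12 in OGD/R, the last above control (0.64, adjusted p = 0.00153).

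Of 12 further LDL receptor family genes 7 were tested. In OGD 5 were lower and 0 higher (median -0.76, relative median -0.46), and from OGD to OGD/R 6 were higher and 0 lower (median 1.77, relative median 1.38). After median-of-ratios scaling 5 were lower and 4 higher in these comparisons, with 0 the other way. With the length trend removed 4 were lower and 3 higher, with 0 the other way (relative medians -0.39 and 1.09). Of 10804 genes 2547 were then lower in OGD and 3330 higher from OGD to OGD/R. On the deposited scale 46.7% of all genes were lower in OGD and 53.3% higher from OGD to OGD/R. LRP5, a Wnt co-receptor, read 1.84, 1.56 and 2.05 FPKM under OGD and 9.13, 11.3 and 10.5 in OGD/R (2.01, SE 0.15, adjusted p = 4.73e-07). LRP10 fell in OGD from 10.5 to 4.75 FPKM (-0.98, adjusted p = 0.000193). Against control 4 were higher and 1 lower in OGD/R (24.7% and 16.5% of all genes). The largest of these, LRP11 (2.23, SE 0.76, adjusted p = 0.0324), rested on control values of 0.529, 0.193 and 11.5 FPKM, and its call was lost in 10 of 21 settings (adjusted p from 0.0545 to 0.135). The 1 lower was LRP12 (from 13.4 to 9.78 FPKM, -0.40, adjusted p = 0.0345), a call lost in 9 settings (adjusted p from 0.0501 to 0.22).

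All 8 partners of this family were tested, with 6 lower and 0 higher in OGD (46.7% and 11.3% of all genes, relative median -0.25), while median-of-ratios scaling left 3 lower and 1 higher. MYLIP, a ubiquitin ligase for the LDL receptor, was higher in OGD/R (4.47 FPKM) than in OGD (1.17, adjusted p = 1.33e-05) and control (2.34, adjusted p = 0.00368). From OGD to OGD/R 7 were higher and 1 lower (53.3% and 17.4% of all genes, relative median 0.53). That 1 was SNX17, an endosomal sorter of LRP1 (from 57.4 to 47.8 FPKM, -0.26, adjusted p = 0.0132), whose sign turned when libraries were scaled to an equal summed FPKM (0.16, adjusted p = 0.184). Leaving out OGD replicate 2 (adjusted p = 0.0554) or 3 (adjusted p = 0.0662) ended that call. In OGD/R against control 2 were higher and 1 lower. SNX17 was again the 1 lower (-0.22, adjusted p = 0.0474), and that call was lost in 15 of 21 settings (adjusted p from 0.0514 to 0.591).

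Of 11 other receptors used to cross the blood-brain barrier 10 were tested, with 3 higher and 6 lower in OGD, 7 higher and 2 lower from OGD to OGD/R, and 6 higher and 1 lower in OGD/R against control. The relative medians were 0.01, 0.44 and 0.41. Median-of-ratios scaling turned the split in OGD to 3 higher and 1 lower, and with the length trend removed 4 were higher and 2 lower both in OGD and from OGD to OGD/R (relative medians 0.09 and 0.10). With that trend removed all 10804 genes gave 2298 higher and 2547 lower, and 3330 and 3333. IGF1R, counted here as higher in OGD/R, passed the filter only through its OGD/R values, so those calls are no result. SLC3A2, the heavy chain of the large neutral amino acid transporter and of CD98, read 176, 187 and 182 FPKM in OGD against 100.5, 66.5 and 71.8 in control (1.20, SE 0.13, adjusted p = 2.41e-05), and fell in OGD/R (-0.85, adjusted p = 8.07e-05). TFRC, the transferrin receptor, read 30.1, 27.3 and 28.3 FPKM under OGD and 60.6, 76.3 and 76.9 in OGD/R (1.28, SE 0.11, adjusted p = 1.06e-06). TMEM30A fell in OGD (from 45.0 to 26.9 FPKM, -0.72, adjusted p = 0.000299). HBEGF, the growth factor precursor that serves as diphtheria toxin receptor, was higher in OGD/R (16.3, 21.1 and 16.7 FPKM) than in control (6.81, 5.17 and 5.43, fold change 1.48, adjusted p = 1.51e-05). CD320, the transcobalamin receptor, was lower in OGD/R than in control (58.7 against 76.8 FPKM, adjusted p = 0.0141), but not without OGD/R replicate 2 (adjusted p = 0.0567) or scaled to an equal summed FPKM (adjusted p = 0.115).

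Insulin receptor signalling had 9 of 10 tested genes lower in OGD and 10 of 10 higher from OGD to OGD/R, with 0 the other way, against 46.7% and 53.3% of all genes (relative medians -0.33 and 0.54). After median-of-ratios scaling these were 4 and 7, and with the length trend removed 4 were lower in OGD, while 3 were higher and 1 lower from OGD to OGD/R. Of 10804 genes 2547 were then lower in OGD, and 3330 were higher and 3333 lower from OGD to OGD/R. IRS1, the docking protein of the receptor, read 3.11, 3.76 and 2.55 FPKM in control and 1.31, 1.06 and 1.28 in OGD (-0.89, SE 0.16, adjusted p = 0.000774). PTPN1, a phosphatase that switches the receptor off, rose from 10.6 FPKM in OGD to 36.6 in OGD/R (1.69, adjusted p = 8.90e-07), above its 20.5 in control (0.82, adjusted p = 0.000711). Against control 6 were higher and 0 lower, and with the length trend removed 2 were higher and 1 lower (relative median 0.39 and 0.23). IGF1R is among the genes counted but, like INSR, passed the filter only through its OGD/R values, so its calls as higher in OGD/R are no result.

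Of the dynamins and other scission proteins besides DNM2, 6 of 9 were tested, with 4 lower in OGD, 5 higher from OGD to OGD/R and 3 higher against control, and 0 the other way, against 46.7%, 53.3% and 24.7% of all genes (relative medians -0.28, 0.44 and 0.29). Median-of-ratios scaling left 3, 3 and 2. With the length trend removed these were 3, 3 and 3, and 1 was lower against control. Of 10804 genes 2547 were then lower in OGD and 3330 higher from OGD to OGD/R, and 2248 were higher and 2500 lower against control. DNM1, best known from nerve terminals, read 3.31, 2.33 and 2.45 FPKM in control, 0.692, 0.643 and 0.923 under OGD and 5.17, 5.81 and 5.14 in OGD/R. It fell by 1.07 (SE 0.14, adjusted p = 8.81e-05), rose by 1.86 (SE 0.14, adjusted p = 4.73e-07) and, unlike DNM2, was called higher than control (0.79, adjusted p = 0.000892). The difference between DNM1 and DNM2 was not tested.

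**Figure D5:**
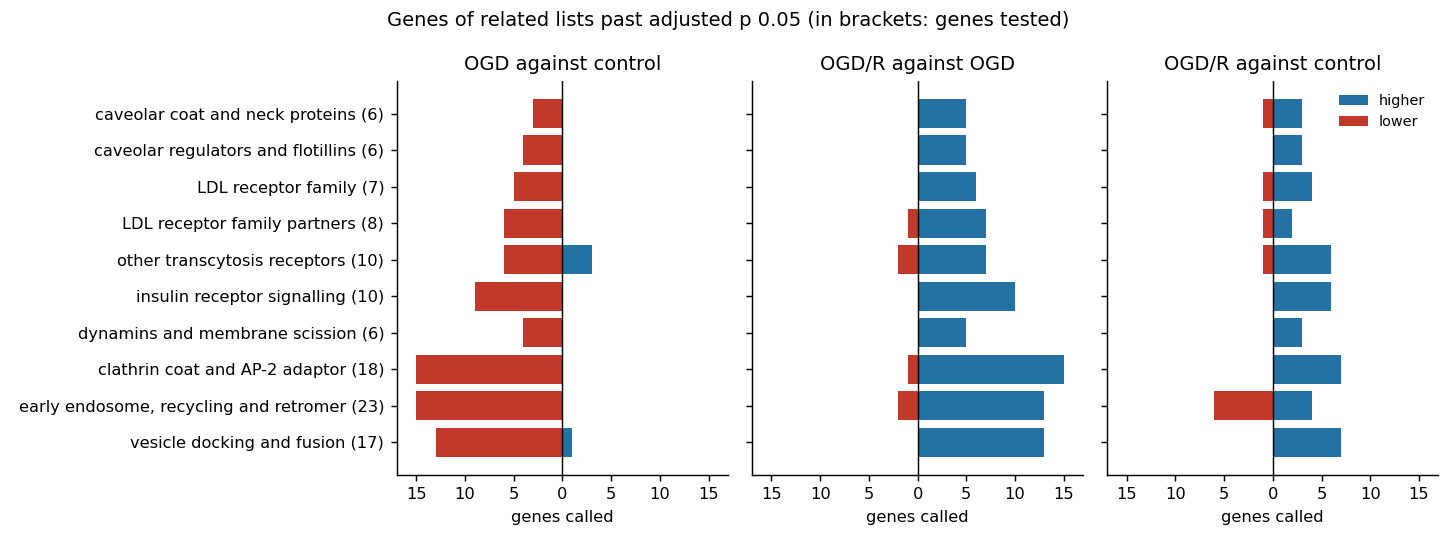
Number of genes called higher (right, blue) and lower (left, red) in each related list without the 9 genes, in the 3 comparisons. Genes tested per list are in brackets. In OGD bars point mostly left, with 15 of 18 clathrin and AP-2 genes lower, and from OGD to OGD/R mostly right, as did the median of all genes (-0.31 and 0.39).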

How the data were processed

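RNA from 9 hCMEC/D3 libraries in 3 groups of 3 was sequenced, and groups, replicate numbers and table columns were matched through the sample labels. The authors deposited 1 FPKM value per gene and library, on build GRCh38 per the submitters' processing notes. The aligner, quantification tool, annotation and strand setting are not named in the labels or notes. Depth per library is unknown, and precision rests on the number of libraries.

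Of 15570 genes, the 10818 whose level reached 1 FPKM in 3 or more libraries were tested as log2(FPKM + 1) in 1 fit of all 9 libraries with limma 3.58.1 in R 4.3.3, with an intensity trend, 2-sided and adjusted by Benjamini-Hochberg over all genes tested. The residual and prior degrees of freedom were 6 and 6.33. The fit was tested on simulated data, where most changes of the smaller simulated size were missed. The pass mark first set for this check was not met at that size. It was loosened after this was seen, without a change to the fit. Genes not called are therefore to be read by their intervals. No pair of libraries held identical values. Coordinates and promoters are from RefSeq GRCh38.p14, and transcript lengths (the longest per gene, for 99.9% of genes tested) from GENCODE. Figures used matplotlib 3.10.9.

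The members and lists were chosen with earlier results of these data known. Named genes were the 9 members, from each related list the called gene with the largest rise and with the largest fall per comparison, and the 2 genes nearest in pattern to each member with an SD of at least 0.2, besides the endothelial markers PECAM1, CDH5, VWF and CLDN5. Of these, 2 genes of the related lists are not reported here. Alternatives were a pseudocount of 0.1, no filter or one at 5 FPKM, 3 other scalings, removal of each library's linear trend on log2 transcript length together with its mean, other priors, fits of 2 groups only, a replicate block, and leaving out each library.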

Additional observations from a re-analysis of the deposited data

How the results depend on the processing

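The total of genes called in both directions stayed within 1.5 times that on the deposited scale under the 21 alternatives, but its split did not. For OGD against control 1218 genes were higher and 5054 lower as deposited, 2930 and 2422 after median-of-ratios scaling, and 611 and 7079 scaled to an equal summed FPKM. The totals ran from 5157 to 6698 for OGD against control, from 6918 to 7906 for OGD/R against OGD and from 3424 to 4587 for OGD/R against control when 1 library was left out. The calls for CAVIN1 and EHD2 in all comparisons, and for DNM2 in OGD against control and OGD/R against OGD, held in all 21. LRP1 and INSR were not tested with the filter at 5 FPKM, and the calls of LRP1 in OGD/R held in the other 20. Of the other values of the 9 genes, 27 changed sign. In OGD against control, median-of-ratios scaling gave CAV1 0.28 and INSR 0.01, and scaling to an equal summed FPKM gave CAVIN3 -0.18 and LRP8 -0.20. Quantile normalization gave INSR 0.08, leaving out control replicate 2 gave CAV1 0.03 and LRP8 -0.03 (lowest and highest of CAV1 over libraries left out -0.17 and 0.03), and length trend removal gave CAV1 0.14, LRP1 0.10 and INSR 0.33, with or without the replicate block. In OGD/R against OGD, median-of-ratios scaling gave CAV1 -0.29, CAV2 -0.07 and LRP8 -0.14, quantile normalization LRP8 -0.27 and INSR -0.04, and length trend removal CAV1 -0.11, LRP8 -0.47 and INSR -0.43, with or without the replicate block. In OGD/R against control, median-of-ratios scaling gave CAV1 -0.01 and length trend removal INSR -0.11, likewise with the block. Among genes of the related lists, whose alternatives were chosen after seeing the data, scaling to an equal summed FPKM turned CLTB (0.02), SNX17 (0.16) and VPS29 (0.08) in OGD/R against OGD. The cause was not tested.

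Replicate numbers are shared across groups but nothing says that they pair libraries. Deviations of same-numbered libraries from their group means correlated between -0.20 and 0.148, above 0.1 in 1 of 9 pairs, and 2 of 9 libraries correlated best with their own number. With the replicate block 5956, 7452 and 4128 genes were called, against 6272, 7648 and 4460 without it, and 5, 7 and 4 of the 9 genes in both, INSR included. With the length trend also removed the block gave 4, 6 and 3 of the 9 genes, but not all in the same directions. They were 1 higher and 3 lower in OGD, 4 higher and 2 lower from OGD to OGD/R, and 3 higher and 0 lower against control. On the deposited scale they were 0 and 5, 6 and 1, and 3 and 1, again with INSR included. The calls of CAV2 in OGD and CAVIN3 from OGD to OGD/R were among those lost. Depth is unknown, and INSR and LRP1 lie near the filter, where the added 1 FPKM shrinks fold changes: with 0.1 added, LRP1 rose by 2.11 from OGD to OGD/R.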

Other observations

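The machinery that carries receptors inward and onward was read from 3 further lists. Of 18 clathrin coat and AP-2 adaptor genes, all tested, 15 were lower and 0 higher in OGD (46.7% and 11.3% of all genes, median -0.73, relative median -0.42). From OGD to OGD/R 15 were higher and 1 lower (53.3% and 17.4% of all genes, median 1.0, relative median 0.61). In OGD/R against control 7 were higher and 0 lower (24.7% and 16.5% of all genes). After median-of-ratios scaling the counts were 2 higher and 13 lower, 13 higher and 3 lower, and 7 higher and 1 lower. The shares of all genes were then 27.1% and 22.4%, 31.7% and 35%, and 21.6% and 23.6%. EPN2, an epsin that bends the membrane of coated pits, read 5.72, 7.22 and 4.81 FPKM in control, 2.29, 1.06 and 0.755 under OGD and 5.50, 5.56 and 7.24 in OGD/R. It fell by 1.59 (SE 0.22, adjusted p = 0.000122) and rose by 1.63 (adjusted p = 3.16e-05). EPS15L1, an endocytic adaptor, was higher in OGD/R than in control (12.1 against 7.45 FPKM, 0.64, adjusted p = 0.00304). The 1 gene lower in OGD/R than in OGD was CLTB, a clathrin light chain (64.1 against 84.8 FPKM, -0.40, adjusted p = 0.00726), and its sign turned when libraries were scaled to an equal summed FPKM.

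Early endosome, recycling and retromer genes gave 15 of 23 lower and 0 higher in OGD, 13 higher and 2 lower from OGD to OGD/R, and 4 higher and 6 lower against control, with medians within 0.14 of that of all genes. The shares of all genes were 46.7% and 11.3%, 53.3% and 17.4%, and 24.7% and 16.5%. Median-of-ratios scaling gave 3 higher and 5 lower, 8 higher and 10 lower, and 4 higher and 9 lower. All genes then gave 27.1% and 22.4%, 31.7% and 35%, and 21.6% and 23.6%. RAB11FIP5, an effector of RAB11 in recycling, read 2.93, 2.23 and 2.06 FPKM under OGD and 8.04, 8.47 and 9.86 in OGD/R (1.53, SE 0.16, adjusted p = 4.10e-06). RAB10, a GTPase of polarised and insulin-regulated traffic, was lower in OGD/R (49.1 FPKM) than in control (69.0, adjusted p = 0.00134). VPS29 of the retromer was lower in OGD/R than in OGD (113 against 144 FPKM, adjusted p = 0.0237), a call lost or turned in 7 of 21 settings (adjusted p from 0.0537 to 0.559), among them leaving out OGD replicate 1 (0.106) or OGD/R replicate 1 (0.103). Of 17 docking and fusion genes 13 were lower and 1 higher in OGD, 13 higher and 0 lower from OGD to OGD/R, and 7 higher and 0 lower against control. The relative medians of -0.09, 0.03 and 0.15 lay near those of all genes, of which 46.7% were lower in OGD, 53.3% higher from OGD to OGD/R and 24.7% higher against control. After median-of-ratios scaling these were 2 lower and 2 higher, 4 higher and 4 lower, and 5 higher and 2 lower. STX2 fell in OGD from 16.4 to 8.06 FPKM (-0.94, adjusted p = 3.54e-05), and the v-SNARE gene VAMP2 rose from OGD to OGD/R (6.28 to 16.7 FPKM, 1.29, adjusted p = 8.38e-06). STX3 was the 1 higher in OGD (11.4 against 8.96 FPKM, adjusted p = 0.0369), lost in 7 of 21 settings (adjusted p from 0.0557 to 0.65).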
